A study of Cricetulus griseus with 6 samples.

Results

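The integrin and laminin genes were followed in CHO-T cells, Chinese hamster ovary (CHO) cells made to carry mouse T-cadherin, with and without silencing of *Xbp1*. The genes were chosen by symbol. They were every row named as an integrin alpha or beta chain or as a laminin alpha, beta or gamma chain, together with the leukocyte integrin chains *Itgal*, *Itgam*, *Itgax* and *Itgae*, the nidogens, the heparan sulfate proteoglycan perlecan (*Hspg2*) and dystroglycan (*Dag1*). The rule found 41 of 27873 rows, under 40 symbols, since *Nid2* had 2 rows. It also took in *Itgb1bp1*, *Itgb1bp2* and *Itgb3bp*, which encode proteins named for binding an integrin beta chain and are no chains themselves, and these are described apart. No row matched *Nid1*, *Lama1* or *Lama2*, which were not analysed here.

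The study sequenced mRNA of 6 libraries, 3 of cells given a negative control siRNA (Ctrl) and 3 of cells given an siRNA against *Xbp1* (siXBP1). *Xbp1* encodes the transcription factor that the endoplasmic reticulum stress sensor IRE1α activates by splicing its mRNA. All 6 libraries came from the same line, in which a retrovirus carried the T-cadherin cDNA (*Cdh13*) and puromycin selected the infected cells, and the study's methods place the harvest 48 h after transfection. Whether the line was a clone or a pool is not stated, and 1 siRNA sequence stood for the silencing. The study's methods describe its results in general as coming from independent biological experiments, but neither they nor the labels say so of these libraries in particular, so the p-values measure the spread between these libraries, which may be technical.

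Integrins are receptors of 1 alpha and 1 beta chain that tie the cytoskeleton to proteins outside the cell. The beta1 chain pairs with many alpha chains, of which alpha3 and alpha7 take part in binding laminins, alpha1 in binding collagens and laminins, and alpha5 in binding fibronectin. Laminins are cross-shaped trimers of 1 alpha, 1 beta and 1 gamma chain and form the basal sheet of basement membranes, where nidogens and perlecan bind them. Dystroglycan is a laminin receptor that is no integrin, and its sugar chains carry the binding. All of these chains are made and folded in the endoplasmic reticulum.

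Values are FPKM, the fragments of a gene relative to its exon length and to the mapped reads of the library, which are scaled for gene length and so allow levels of different genes to be set side by side. *Xbp1* itself fell from 26.8 ± 1.35 FPKM to 1.89 ± 0.440 (SD, n = 3 in each condition), 7.05% of the control level, with no overlap between conditions, and *Cdh13* fell to 38.6% of its control level. The summed FPKM of a library lay between 646651 and 666267 in control and between 593487 and 600986 after silencing, without overlap. Scaling factors from the median ratio of genes across libraries lay between 0.998 and 1.003. Changes near 0 thus depend on the scale used. The labels give ovary as the tissue. Of 5 granulosa cell markers listed, 3 had a row, of which *Fshr* was listed at 0 in all 6 libraries while *Inha* averaged 2.63 FPKM in control and 3.52 after silencing and *Amh* 2.69 and 2.96. Of 6 mesenchymal markers, *Col1a1*, *Col1a2* and *Thy1* were listed at 0. The others moved both ways, as *Vim* fell from 377 to 304 FPKM (log2 fold change -0.31, adjusted p = 7.38e-04) and *Pdgfrb* from 4.43 to 2.79 (-0.65, adjusted p = 0.00289), while *Pdgfra* rose from 4.81 to 7.60 (0.65, adjusted p = 0.00111). In bulk RNA, fewer cells of a type and less RNA per cell cannot be told apart.

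The change after *Xbp1* silencing was split between the chains. The most abundant integrin chain, *Itgb1*, its partners *Itga3* and *Itga5*, the laminin alpha chain *Lama5* and the laminin receptor *Dag1* fell, while *Itgav*, *Itga2b*, *Itga1*, the laminin chains *Lamc1*, *Lamb2* and *Lama3*, and *Itgb1bp1* rose. Of the 41 rows, 20 passed the filter of a mean of 0.1 FPKM over the 6 libraries and were tested with limma on log2(FPKM + 0.1), with p-values adjusted over all 14361 genes tested. At an adjusted p under 0.05, 7 were higher and 5 lower after silencing, and 8 did not pass. Of all genes tested, 20.2% were higher and 20.2% lower by that rule. With the added limit of a log2 fold change of 1, a gene is here said to be called, and 1 of the 20 was called higher (*Lama3*) and 0 lower by limma. Of all genes, 2.69% were called higher and 2.5% lower. At an unadjusted p under 0.05, 7 were higher and 6 lower, and the like share over all genes was not computed. The median log2 fold change was 0.11 over the 20 genes and 0.0063 over all genes tested.

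**Figure D1:**
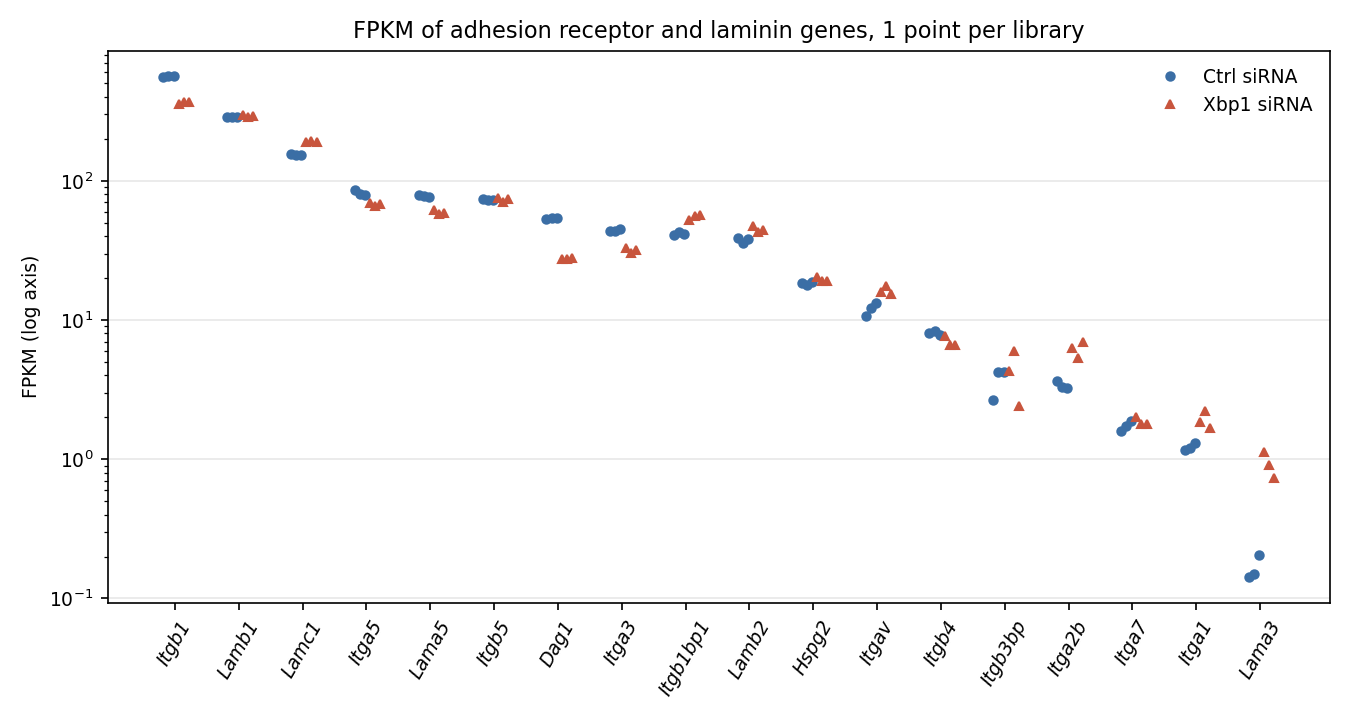
FPKM of 18 integrin, laminin and related genes on a log axis, 1 point per library, with circles for the 3 control siRNA libraries and triangles for the 3 *Xbp1* siRNA libraries. *Itgb1* leads at 560 to 567 FPKM in control cells and 358 to 371 after silencing, and *Lama3*, at the right, is the one gene whose groups lie more than a log2 fold change of 1 apart.

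**Figure D2:**
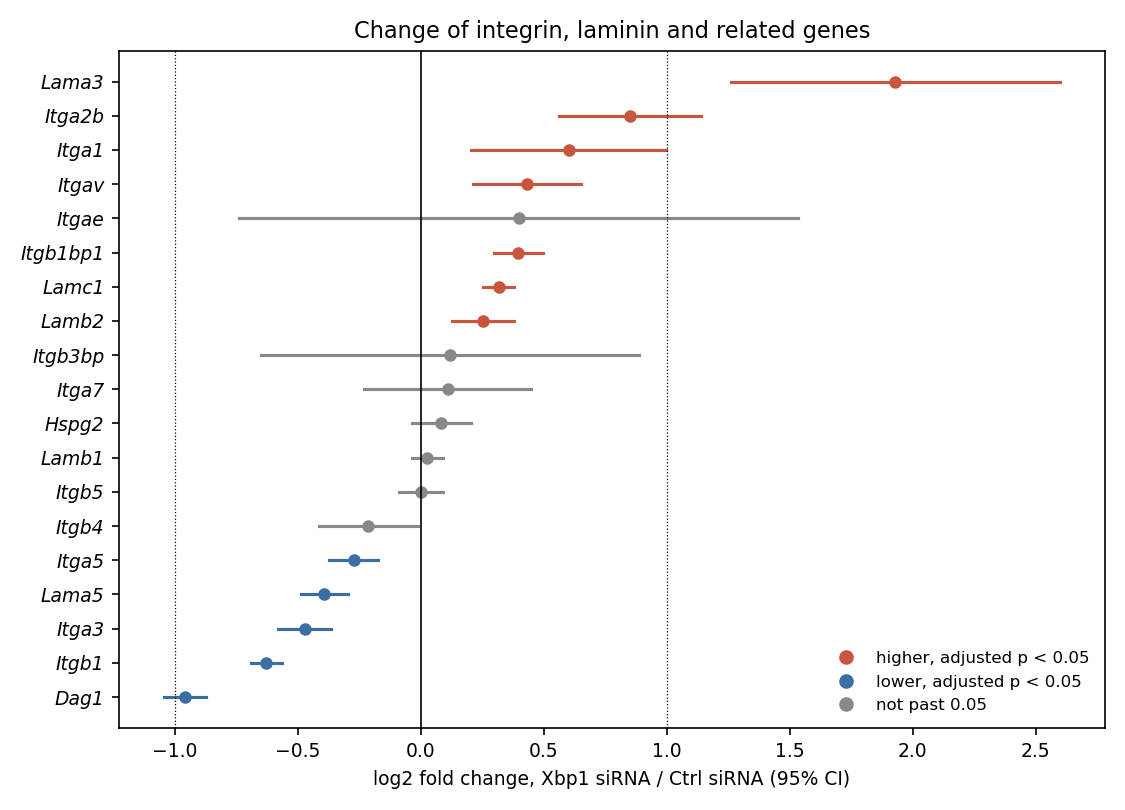
log2 fold change after *Xbp1* silencing, on the log2(FPKM + 0.1) scale, of 19 of the 20 genes tested, as point estimates with 95% confidence intervals from limma. Colours mark the 7 higher and 5 lower at an adjusted p under 0.05, and dotted lines stand at the limit of 1, which *Lama3* passes and *Dag1*, at -0.96, does not reach.

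Of the beta chains, *Itgb1* encodes the common partner of the largest group of integrins. It measured 560, 567 and 567 FPKM in the control libraries and 358, 371 and 367 after silencing. All 3 silenced libraries lay far below all 3 controls, with an SD of 3.86 FPKM among controls and 6.53 FPKM among silenced libraries. The log2 fold change was -0.63 (SE 0.027, adjusted p = 5.61e-06), a level 35.3% lower. Under quantile normalization the log2 fold change shrank to -0.41 (adjusted p = 5.54e-05).

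*Itgb5* encodes the beta5 chain, which pairs with alphav. Its control libraries measured 74.5, 72.2 and 72.8 FPKM and its silenced libraries 74.9, 70.5 and 74.2. The conditions overlapped, and the 95% confidence interval of the log2 fold change ran from -0.087 to 0.088 (adjusted p = 0.995). *Itgb4*, the beta4 chain of the hemidesmosome receptor, measured 8.07, 8.30 and 7.74 FPKM in control libraries and 7.62, 6.59 and 6.61 after silencing. All silenced libraries of *Itgb4* were lower than all controls, by a log2 fold change of -0.21 that missed the threshold (adjusted p = 0.0894). Without siXBP1 library 1, the highest of the silenced ones, it was -0.28 (adjusted p = 0.0448).

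The other beta chains were near or at 0. *Itgb3* and *Itgb8* were listed at 0 in all 6 libraries. *Itgb2*, *Itgb6* and *Itgb7* had at most 3 reads in any library, as read from the whole steps of their FPKM values, and at such counts no difference was detectable.

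Among the alpha chains, the fibronectin receptor chain *Itga5* was the most abundant, at 85.7, 80.7 and 78.5 FPKM in control libraries and 68.8, 66.1 and 67.7 after silencing. It fell in every silenced library below every control, by a log2 fold change of -0.27 (SE 0.043, adjusted p = 0.00187). *Itga3*, whose product binds laminins that hold the alpha5 or alpha3 chain, measured 43.6, 43.7 and 45.0 FPKM in control libraries and 33.0, 30.3 and 32.1 after silencing. The log2 fold change of *Itga3* was -0.47 (SE 0.046, adjusted p = 1.98e-04). On the deposited scale both chains fell by less than their partner *Itgb1*, but under quantile normalization the order turned for *Itga3*, at -0.43 against -0.41 for *Itgb1*, and held for *Itga5*, at -0.21.

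*Itgav*, whose product pairs with several beta chains and recognises the RGD sequence of fibronectin and vitronectin, moved the other way. It measured 10.7, 12.2 and 13.3 FPKM in control libraries and 15.8, 17.6 and 15.5 after silencing. The lowest silenced library stood above the highest control, and the log2 fold change was 0.43 (SE 0.094, adjusted p = 0.00861).

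*Itga2b*, the alphaIIb chain known from platelets, measured 3.62, 3.29 and 3.25 FPKM in control libraries and 6.31, 5.34 and 7.00 after silencing. Its level was 1.83 times the control level, with a log2 fold change of 0.85 (SE 0.12, adjusted p = 0.00128). *Itgb3*, the beta chain with which alphaIIb forms the platelet receptor, was listed at 0, and of 3 platelet markers listed, *Itga2b* among them, the other with a row, *Gp1ba*, averaged 0.135 FPKM in control libraries and 0.0724 after silencing.

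*Itga1*, the alpha1 chain of a collagen and laminin receptor, measured 1.16, 1.19 and 1.31 FPKM in control libraries and 1.85, 2.22 and 1.67 after silencing. Its conditions did not overlap, and the log2 fold change was 0.60 (SE 0.17, adjusted p = 0.0250). The adjusted p passed 0.05 narrowly. It was 0.0538 under quantile normalization, 0.0623 without Ctrl library 1, 0.0640 without Ctrl library 2, 0.0602 without siXBP1 library 1 and 0.0852 without siXBP1 library 2. *Itga1* overlaps the ribosome rescue gene *Pelo* in the RefSeq annotation of Chinese hamster, and *Pelo* averaged 19.2 FPKM in control and 17.5 after silencing (adjusted p = 0.241). It also overlaps a noncoding RNA gene, LOC103160286, at 4.06 and 4.55 FPKM (adjusted p = 0.978). Whether reads were counted by strand is not stated, so the share of *Itga1* that could come from the overlaps was not tested.

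*Itga7*, the alpha7 chain of a laminin receptor of muscle, measured 1.59, 1.74 and 1.87 FPKM in control libraries and 2.02, 1.80 and 1.80 after silencing, with overlap between the conditions (log2 fold change 0.11, 95% confidence interval -0.23 to 0.45, adjusted p = 0.589). *Itgae*, a chain of intraepithelial lymphocytes, lay between 0.0302 and 0.178 FPKM over the 6 libraries, from 1 to 7 reads, and overlapped (adjusted p = 0.557).

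The remaining alpha chains were not tested. *Itga11* and *Itgax* were listed at 0 in all libraries, and *Itga2*, *Itga6*, *Itga8*, *Itga9*, *Itgal* and *Itgam* had at most 3 reads in any library. *Itga4* had 2, 1 and 1 reads in control libraries and 4, 0 and 1 after silencing. *Itga10* did not exceed 0.142 FPKM. The alpha6 chain, the partner of beta4 and a main laminin receptor chain of epithelia, was thus represented by a total of 1 read over the 6 libraries.

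Of the proteins named for binding integrins, *Itgb1bp1*, whose product binds the beta1 tail and is known to restrain integrin activation, measured 40.8, 42.7 and 41.6 FPKM in control libraries and 52.6, 55.8 and 56.3 after silencing. It rose while *Itgb1* fell, with a log2 fold change of 0.40 (SE 0.042, adjusted p = 3.05e-04). *Itgb3bp*, which encodes a centromere protein also named for binding beta3, lay between 2.42 and 5.98 FPKM, with overlapping conditions and a silenced range that held the control range (adjusted p = 0.807). *Itgb1bp2* had at most 2 reads in any library.

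*Dag1* had the lowest log2 fold change of the 20 genes tested. It encodes both subunits of dystroglycan, which links laminin and perlecan outside the cell to dystrophin or utrophin within. It measured 52.8, 53.7 and 53.7 FPKM in the control libraries and 27.2, 27.3 and 27.7 after silencing. The 6 values formed 2 tight groups with a wide gap, and the level was 48.7% lower. The log2 fold change was -0.96 (SE 0.036, 95% confidence interval -1.04 to -0.87, adjusted p = 3.53e-06), just short of the limit of 1.

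Among the genes that surround dystroglycan, more passed as higher than as lower. A list of 33 genes of the dystrophin complex and of the O-mannosylation that gives dystroglycan its laminin-binding sugars had 28 symbols in the files, of which 22 were tested. By adjusted p, 10 were higher and 2 lower, 45.5% and 9.09% of those tested, where 20.2% of all genes went each way. The median log2 fold change was 0.39 against 0.0063 over all genes tested. The 1 called higher is 4.55%, beside 2.69% of all genes. The called gene was *Dtnb*, which encodes dystrobrevin beta, at 11.5 FPKM in control and 27.0 after silencing (log2 fold change 1.22, adjusted p = 4.00e-05). Dystrophin (*Dmd*) rose from 3.09 to 5.48 FPKM and sarcospan (*Sspn*) from 4.64 to 7.47. Of the sugar transferases, *Pomt1*, which starts the O-mannose chain, rose from 7.84 to 14.8 FPKM, and *Rxylt1*, which adds xylose in that chain, rose from 27.9 to 43.6. Of those that fell, *Dpm1*, a subunit of the synthase that makes the mannose donor, is named after its values were seen, with a log2 fold change of -0.26 (adjusted p = 0.00292).

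**Figure D3:**
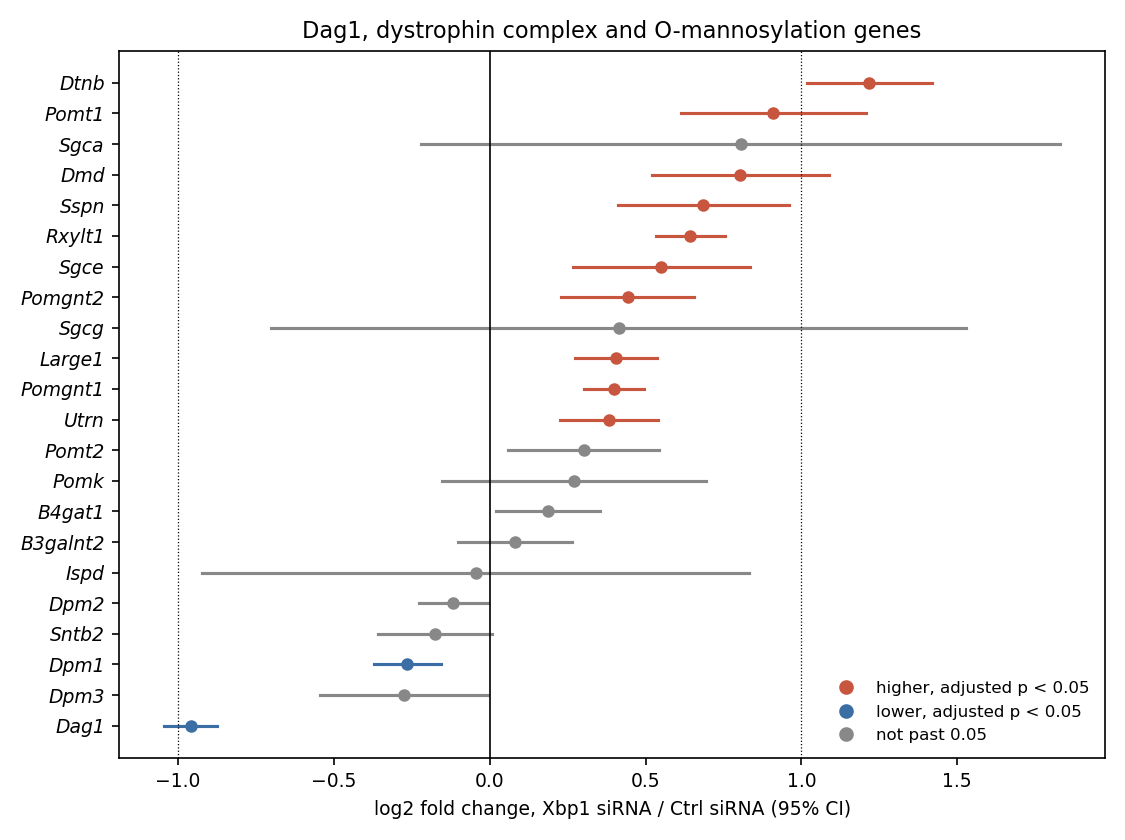
log2 fold change after *Xbp1* silencing of *Dag1* and of 21 of the 22 tested genes of the dystrophin complex and O-mannosylation, with 95% confidence intervals from limma. *Dag1* stands lowest at -0.96 and *Dtnb* highest at 1.22, and the 10 genes higher at an adjusted p under 0.05 are marked by colour.

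The laminin chains did not move together. The 2 most abundant, *Lamb1* and *Lamc1*, encode the beta1 and gamma1 chains that most laminins share. *Lamb1* measured 288, 288 and 285 FPKM in the control libraries and 297, 289 and 292 after silencing. The silenced values lay just above the controls, with a log2 fold change of 0.03 and a 95% confidence interval of -0.035 to 0.090 (adjusted p = 0.458). Under quantile normalization it was 0.20 (adjusted p = 9.57e-04).

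*Lamc1* measured 155, 152 and 152 FPKM in the control libraries and 191, 192 and 189 after silencing. It rose by 24.5%, with no overlap and a log2 fold change of 0.32 (SE 0.027, adjusted p = 1.07e-04). *Lamb2*, the beta2 chain known from the synapse and the kidney filter, measured 38.7, 35.9 and 38.2 FPKM in control libraries and 47.5, 42.8 and 44.4 after silencing, a log2 fold change of 0.25 (SE 0.054, adjusted p = 0.00753).

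*Lama5*, the alpha chain of the alpha5beta1gamma1 and alpha5beta2gamma1 laminins and almost the whole of the alpha chain signal, fell while *Lamc1* rose. It measured 79.6, 77.2 and 76.5 FPKM in control libraries and 61.9, 57.7 and 58.3 after silencing, with a log2 fold change of -0.39 (SE 0.040, adjusted p = 2.57e-04). *Lama3*, *Lama5* and *Lamc1* each overlap a noncoding RNA gene in the RefSeq annotation that has no row here, and its part in their values was not tested.

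*Lama3*, the alpha chain of an epithelial laminin, was the gene called. It measured 0.141, 0.151 and 0.206 FPKM in the control libraries and 1.12, 0.906 and 0.731 after silencing. On the steps of the FPKM values these were 7, 7 and 10 reads against 57, 44 and 42, so that the control level rests on 24 reads in all. Each silenced library stood well above each control, and the mean was 5.54 times the control mean, while the spread among silenced libraries (SD 0.197) exceeded the control mean of 0.166. The log2 fold change was 1.93 (SE 0.29, adjusted p = 0.00143). With a pseudocount of 1 in place of 0.1 it was 0.72 (adjusted p = 0.00162) and was no longer called. *Lamb3*, the beta chain of the same laminin, was listed at 0 in all libraries.

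Some epithelial markers were also higher after silencing. Of 5 markers listed, 4 had a row, and their summed level ran from 1.83 to 2.16 FPKM in control libraries and from 4.59 to 5.79 after silencing. *Epcam* averaged 1.82 and 4.72 FPKM and E-cadherin (*Cdh1*) 0.131 and 0.434, both called higher, while the keratins *Krt18* and *Krt19* were listed at 0. Most of the sum was thus *Epcam*, and the *Cdh1* call was lost in 5 of the 6 fits that left out 1 library. The part of this in the *Lama3* result was not tested.

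*Hspg2* encodes perlecan, which binds laminin and dystroglycan through its protein and sugar parts. It measured 18.5, 17.9 and 18.7 FPKM in control libraries and 20.2, 19.0 and 19.1 after silencing. All silenced values were higher, by a log2 fold change of 0.08 that did not pass (95% confidence interval -0.037 to 0.20, adjusted p = 0.240). *Lama4* was listed at 0, *Lamc3* had 1 to 7 reads in each library, and the nidogen *Nid2* had at most 1 read in any library on one row and none on the other. In all, 18 of the 41 rows had at most 3 reads in every library, 7 of them none.

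Put together by class, the integrin beta chains summed to 646 ± 2.69 FPKM in control and 446 ± 4.18 after silencing, which was 69.0% of the control sum. The integrin alpha chains summed to 144 ± 1.98 and 126 ± 2.41 FPKM, 87.2% of control. The summed laminin alpha chains stood at 77.3% of control, the beta chains at 104% and the gamma chains at 124%. In each of the 5 classes the conditions did not overlap, as was the case for the FPKM of 51.8% of all genes tested, and the exact two-sided permutation p was 0.1, the smallest that 3 against 3 libraries allow.

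**Figure D4:**
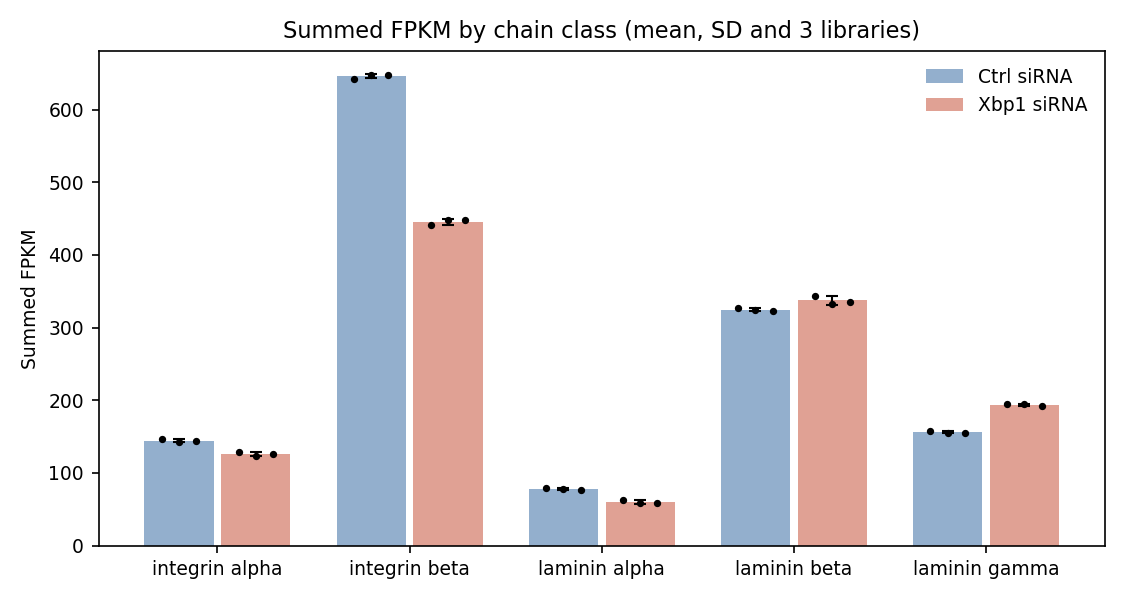
Summed FPKM of the integrin alpha and beta chains and the laminin alpha, beta and gamma chains, as means with SD (bars) and the 3 libraries of each condition (points). The integrin beta sum fell to 69.0% of control while the laminin gamma sum stood at 124%.

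The make-up of the classes shifted with these sums. *Itgb1* made up 87.4% of the integrin beta FPKM in control and 82.0% after silencing, and *Itgb5* 11.3% and 16.4%. Among alpha chains, *Itgav* went from 8.38% to 12.9% and *Itga2b* from 2.35% to 4.93%, while *Itga3* went from 30.5% to 25.2% and *Itga5* from 56.5% to 53.6%. *Lama3* remained a small part of the laminin alpha chains, at 0.214% in control and 1.52% after silencing. Of 16 such shares, 15 did not overlap between conditions, each at the exact two-sided permutation p of 0.1, and the exception was *Itgae*. Shares within a class are tied to each other, so these are not separate results, and the levels of 51.8% of all genes did not overlap either.

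Chains were next set against their partners. Of 23 known integrin pairs, 6 had both chains at 1 FPKM or more in a condition, namely alpha1beta1, alpha3beta1, alpha5beta1, alpha7beta1, alphavbeta1 and alphavbeta5. Of 13 laminin trimers, 5 hold a chain with no row and could not be assessed, and of the other 8, 2 had all chains at that level, alpha5beta1gamma1 and alpha5beta2gamma1. Ratios of mRNA levels say nothing of the receptors or trimers assembled.

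The ratios of all 5 alpha chains to *Itgb1* were higher in every silenced library than in every control on the deposited scale. *Itga5* to *Itgb1* went from 0.145 ± 0.00751 to 0.185 ± 0.00698, and *Itga3* to *Itgb1* from 0.0781 ± 0.00124 to 0.0871 ± 0.00532. *Itgav* to *Itgb1* went from 0.0214 to 0.0445, or 2.08 times the control ratio. *Itgb1* remained in excess of the sum of all alpha chains in both conditions, at 565 against 144 FPKM and at 365 against 126. Against *Itgb5*, the ratio of *Itgav* went from 0.165 ± 0.0200 to 0.223 ± 0.0229.

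Within the alpha5beta1gamma1 laminin, the ratio of *Lama5* to *Lamc1* went from 0.508 ± 0.00598 to 0.311 ± 0.0116 and that of *Lama5* to *Lamb1* from 0.271 to 0.203. *Lama5* was thus the scarcest of the 3 chains in both conditions. *Lamb1* to *Lamc1* went from 1.88 to 1.53, and *Lamb2* to *Lamc1* overlapped between conditions, at 0.246 and 0.236 (exact permutation p = 0.2).

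Receptor chains were then set against ligand chains. *Itga3* and its ligand chain *Lama5* both fell, and their ratio was 0.567 ± 0.0202 in control and 0.536 ± 0.0129 after silencing, with overlap (exact permutation p = 0.2). The ratio of *Dag1* to its ligand chain *Lama5*, which fell less, went from 0.687 to 0.463, and its ratio to *Hspg2*, whose silenced values were all above the controls, from 2.91 to 1.41. Fibronectin (*Fn1*), the ligand of alpha5beta1, rose from 13.1 to 23.3 FPKM (log2 fold change 0.83, adjusted p = 2.15e-05), and *Itga5* to *Fn1* went from 6.25 to 2.89. Vitronectin (*Vtn*), the ligand of alphavbeta5, was listed at 0. Of 17 ratios, 15 did not overlap between conditions, each at an exact two-sided permutation p of 0.1 (0.113 after Benjamini-Hochberg adjustment). Many of the ratios share *Itgb1*, *Lama5* or *Lamc1* and so move together, and no like share over all gene pairs was computed.

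The adaptors, signalling proteins and associated membrane proteins of integrins had a share called higher near that of all genes. Of 44 listed, 43 were found and 38 tested, of which 15 were higher and 7 lower by adjusted p, with a median log2 fold change of 0.06. These are 39.5% and 18.4% of those tested, against 20.2% of all genes each way, and the 1 called higher is 2.63% against 2.69%. The 1 called was *Cd47*, an integrin-associated membrane protein and the ligand of SIRPα, which measured 1.39, 1.59 and 1.65 FPKM in control libraries and 6.63, 6.85 and 6.77 after silencing (log2 fold change 2.06, adjusted p = 1.43e-05). Talin 2 (*Tln2*), which binds beta chain tails, rose from 5.50 to 10.1 FPKM. The more abundant talin 1 (*Tln1*) fell from 33.1 to 27.8 FPKM (adjusted p = 0.0040). Paxillin (*Pxn*) fell from 22.4 to 13.9 FPKM and its relative leupaxin (*Lpxn*) from 6.51 to 3.66. *Rap1a*, a small GTPase that turns integrins on, fell from 59.2 to 37.1 FPKM. Its more abundant relative *Rap1b* rose from 105 to 125 FPKM (adjusted p = 0.00338). *Tln1* and *Rap1b* are named after their values were seen.

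Other proteins of the matrix and other integrin ligands were mixed. Of 41 listed, 36 were found and 21 tested, with 7 higher and 5 lower by adjusted p (33.3% and 23.8%, against 20.2% of all genes each way) and a median log2 fold change of 0.01. By the rule with the fold limit, 3 were called higher and 1 lower, 14.3% and 4.76% against 2.69% and 2.5% of all genes. *Icam1*, the cell surface ligand of leukocyte integrins, rose from 60.1 to 201 FPKM (log2 fold change 1.74, adjusted p = 5.43e-07), while the alpha and beta chains that bind it, *Itgal*, *Itgam* and *Itgb2*, had at most 3 reads in any library. Peroxidasin (*Pxdn*), which cross-links collagen IV, rose from 30.5 to 62.4 FPKM, and its log2 fold change of 1.03 was 0.99 without siXBP1 library 1. Osteopontin (*Spp1*), an RGD ligand of alphav integrins, fell from 3.99 to 1.80 FPKM (log2 fold change -1.11) and was not called with a pseudocount of 1 (-0.84). *Ltbp1*, which holds latent TGF-β in the matrix, fell from 123 to 62.9 FPKM, and netrin 4 (*Ntn4*), which binds laminin gamma chains, from 96.2 to 51.4. *Sparc*, a collagen-binding matrix protein, fell from 316 to 209.7 FPKM (log2 fold change -0.59, adjusted p = 3.71e-05). Over all fits tried, its log2 fold change ran from -0.63 to -0.44. *Cdh1*, a ligand of the alphaE chain *Itgae*, was called at an adjusted p of 0.0489. That call was lost without Ctrl library 2 or 3 (adjusted p = 0.107 and 0.0824) and without siXBP1 library 1, 2 or 3 (0.0840 to 0.145). It was also lost under quantile normalization (adjusted p = 0.0580) and with a pseudocount of 0.01 (adjusted p = 0.0711).

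Laminin receptors that are neither integrins nor dystroglycan were listed together with syndecans and a glypican, and of these 6 genes 5 were tested. *Rpsa*, which encodes a ribosomal protein also known as a laminin receptor, fell from 4176 to 2139 FPKM, a log2 fold change of -0.96 (adjusted p = 5.35e-06), although ribosomal protein genes have many processed copies that can share reads. Under quantile normalization the log2 fold change of *Rpsa* was -0.69 (adjusted p = 5.59e-06). Syndecan 4 (*Sdc4*) fell from 212 to 129 FPKM and glypican 1 (*Gpc1*), named after its values were seen, from 159 to 135, while syndecan 1 (*Sdc1*) rose from 139 to 170. Syndecan 2 (*Sdc2*), at 0.220 and 0.523 FPKM, passed at an adjusted p of 0.0453. It did not pass without Ctrl library 1, 2 or 3 (adjusted p = 0.0768, 0.110 and 0.0782) or without siXBP1 library 1 (0.147) or 3 (0.113). Nor did it pass under quantile normalization (adjusted p = 0.0618). *Bcam*, a receptor of the laminin alpha5 chain, was listed at 0. Over the 4 lists, 34 of 86 genes tested were higher and 17 lower by adjusted p, 39.5% and 19.8% against 20.2% of all genes each way. The 5 called higher and 1 called lower were 5.81% and 1.16%, against 2.69% and 2.5%.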

How the data were processed

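Total RNA was made into stranded mRNA libraries (TruSeq) and sequenced on an Illumina HiSeq instrument. The authors deposited FPKM values per gene symbol for each library, and the submitters' processing notes name HISAT2 2.1.0 and Cuffdiff 2.2.1. The genome build, annotation and strand setting are not given in the sources used here. Raw counts were not analysed here, so the count test of the study's methods was replaced by limma 3.58.1 in R 4.3.3 (moderated, with trend) on log2(FPKM + 0.1), with its limits kept at an adjusted p of 0.05 and an absolute log2 fold change of 1. Fold changes on this scale understate the change of weak genes. Genes needed a mean of 0.1 FPKM, and Benjamini-Hochberg adjustment ran over all 14361 genes tested. The procedure was tested on simulated data. Single values were compared by exact two-sided permutation tests (SciPy 1.17.1). Reads of weak genes were recovered from whole steps of their FPKM values, and library depths relative to Ctrl library 1 were 94.0% to 116%. Overlapping genes were read from RefSeq (CriGri-PICRH-1.0), in which all 40 symbols matched.

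Genes of the rule at 1 FPKM or more in a condition, or past the threshold, were described by library, and in each pathway list the called genes and up to 4 with the largest change. The genes and lists were chosen with earlier results of these data known. Some genes in the counts are not reported here by name. Other pseudocounts, filters, scalings, a fit without trend, the replicate block and leaving out each library were tried.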

Additional observations from a re-analysis of the deposited data

How the results depend on the processing

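FPKM keeps no counts, so precision at low levels rests on the recovered reads, and the 3 libraries of a condition limit exact tests to p = 0.1. Calls over all genes went from 386 higher and 359 lower to 114 and 205 when the pseudocount was 1, with 0 integrin and laminin genes called higher and 0 pathway genes lower. With a filter at a mean of 1 FPKM, 242 genes were called higher, and 0 integrin and laminin genes, since *Lama3*, like *Itgae*, *Cdh1* and *Sdc2*, was then not tested. *Itgae* was also below the filter without siXBP1 library 1 or 3. With no fold threshold the counts were 2898 higher and 2904 lower over all genes, 7 and 5 over the integrin and laminin genes, and 34 and 17 over the pathway genes. Leaving out 1 library gave 3 to 5 pathway genes called higher, the lowest count without siXBP1 library 1. Log2 fold changes that changed sign were small: *Itga7* was -0.017 under quantile normalization, and with 1 library left out *Itgb3bp* ran from -0.17 to 0.46 and *Itgb5* from -0.016 to 0.028. The cause was not tested. Deviations of same-numbered libraries were not correlated (r of -0.029, -0.027 and -0.012), so the numbers were not taken as pairs. With the replicate block, 363 genes were called higher and 353 lower, and *Itga1* (adjusted p = 0.0564), *Cdh1* (0.0727) and *Sdc2* (0.0725) no longer passed. Of 582 values of single genes under the alternatives, 551 kept their direction and their side of the adjusted p of 0.05. The fold limit did not enter that count. With it, the call changed in some fits for *Lama3*, *Cdh1*, *Pxdn*, *Sdc2* and *Spp1*.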
